A study of Caenorhabditis elegans with 2 samples.

Results

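The GATA transcription factor genes of intestine and epidermis in the nematode Caenorhabditis elegans, elt-2, elt-7, elt-1, elt-3, egl-18 and elt-6, were searched for regions of CEH-9 ChIP-seq signal. These are 6 of 19973 protein-coding genes on the nuclear chromosomes. The genes were selected on the deposited signal values, after an intron peak of elt-2 had been seen among the strongest regions, so the values below are a description and no test was run on them. For each gene the window ran from 5 kb upstream of the annotated start to the annotated end, and every region that overlapped it was taken. CEH-9, a homeodomain protein, was immunoprecipitated from whole L3 larvae of strain OP202, genotype unc-119(ed3) III; wgIs202, in which a stable transgene makes CEH-9 fused at its C-terminus to GFP-FLAG. The larvae were a mix of male and female animals, their age in hours is not given, and every sample carries the same genotype, so there is 1 group with no untagged or untreated group beside it. The group has 2 samples, biological replicates 1 and 3. The labels call them CEH-9 ChIP in the assay and antibody fields and input in a free-text field. Tissues were not separated, so signal from intestine, epidermis and other cells cannot be told apart.

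GATA factors are zinc finger proteins that bind short DNA words with GATA at their core. In the worm intestine, ELT-2 and ELT-7 act after the early endoderm factors END-1 and END-3 and keep intestinal genes on. In the epidermis, ELT-1 acts early in the embryo to give cells their epidermal fate, ELT-3 acts in the differentiating main epidermis, and EGL-18 and ELT-6 act in the seam cells, a lateral row of stem-like epidermal cells.

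The region lists were deposited by the authors as the regions of each replicate, the regions of the pooled replicates, and the reproducible set, which passed an irreproducible discovery rate threshold that is not given in the sources used here. The signal value of a region comes from the peak caller and has no stated unit, so it ranks regions within a list only, and rank 1 is the highest. On build ce11 the nuclear chromosomes had 29970 regions in replicate 1, 30000 in replicate 3, 10489 in the pooled list and 45 in the reproducible set. That name stands here for the authors' optimal thresholded list, whose 45 regions were the 45 strongest of the pooled list. Of these, 5 had no replicate 3 summit within 200 bp. A q-value under 0.05 was reached by 3021 regions of replicate 1, 24 of replicate 3 and 28 of the pooled list, and the other regions did not reach it. Read depth is unknown here.

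The sequence around 5 summits is shown because these are the strongest pooled region of each gene that had one, together with the second region inside elt-2. Each line gives 100 bases to either side of the summit, 5′ to 3′ on the plus strand, which is the coding strand of all 6 genes. Capitals mark the GATA words TGATAA or AGATAA or TGATAG or AGATAG on either strand. The sequences are from the RefSeq WBcel235 genome, the same build as ce11, at chrX:10482893-10483093 and chrX:10482034-10482234 for elt-2, chrX:13937497-13937697 for elt-3, chrIV:9617195-9617395 for elt-1 and chrIV:1906831-1907031 for egl-18.
elt-2, summit 1753 bp after the start: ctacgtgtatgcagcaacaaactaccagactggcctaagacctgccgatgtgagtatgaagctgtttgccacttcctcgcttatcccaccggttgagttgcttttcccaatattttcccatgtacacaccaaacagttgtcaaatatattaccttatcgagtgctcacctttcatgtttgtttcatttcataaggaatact
elt-2, summit 894 bp after the start: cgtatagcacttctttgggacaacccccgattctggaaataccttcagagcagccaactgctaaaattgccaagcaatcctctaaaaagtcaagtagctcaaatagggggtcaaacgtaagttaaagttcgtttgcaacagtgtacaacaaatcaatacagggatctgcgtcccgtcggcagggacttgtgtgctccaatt
elt-3, summit 2723 bp after the start: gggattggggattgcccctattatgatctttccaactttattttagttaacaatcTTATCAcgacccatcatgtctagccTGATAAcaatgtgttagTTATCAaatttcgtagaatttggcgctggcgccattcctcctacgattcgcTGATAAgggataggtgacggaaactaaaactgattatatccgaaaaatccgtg
elt-1, summit 2300 bp after the start: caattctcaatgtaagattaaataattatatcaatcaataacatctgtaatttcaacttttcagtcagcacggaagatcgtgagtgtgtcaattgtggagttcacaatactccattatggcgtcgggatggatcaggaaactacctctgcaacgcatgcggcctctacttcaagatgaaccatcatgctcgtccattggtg
egl-18, summit 4609 bp after the start: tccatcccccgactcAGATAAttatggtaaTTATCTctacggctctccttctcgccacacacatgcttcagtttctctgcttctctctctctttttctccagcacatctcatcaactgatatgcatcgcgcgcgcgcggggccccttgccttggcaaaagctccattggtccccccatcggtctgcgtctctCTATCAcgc

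Only elt-2 among the 6 genes had a reproducible peak, while 0.3% of all protein-coding genes had one under the same window rule. Because that peak led to the choice of the genes, nothing is read from this count. The peaks at ranks 1 to 11 of the reproducible set all lay on chromosome X, as elt-2 and elt-3 do. From rank 12 on, where the elt-2 peak lies at rank 44, the peaks were spread over all nuclear chromosomes. The other genes lie on IV or V, and the shares of genes given here and below are over all chromosomes. The pooled list had regions at 4 of the 6 genes, elt-2 with 3, egl-18 with 2, and elt-1 and elt-3 with 1 each, and 56.0% of all protein-coding genes had at least 1. The windows of elt-7 and elt-6 held no pooled region. Each of the 6 genes had a region in replicate 1 and in replicate 3, as did 90.0% and 89.1% of all protein-coding genes, so presence in a replicate list alone separates the genes little from the genome. No pooled region of these genes had a q-value under 0.05, a level that 0.17% of all protein-coding genes reached.

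**Figure D1:**
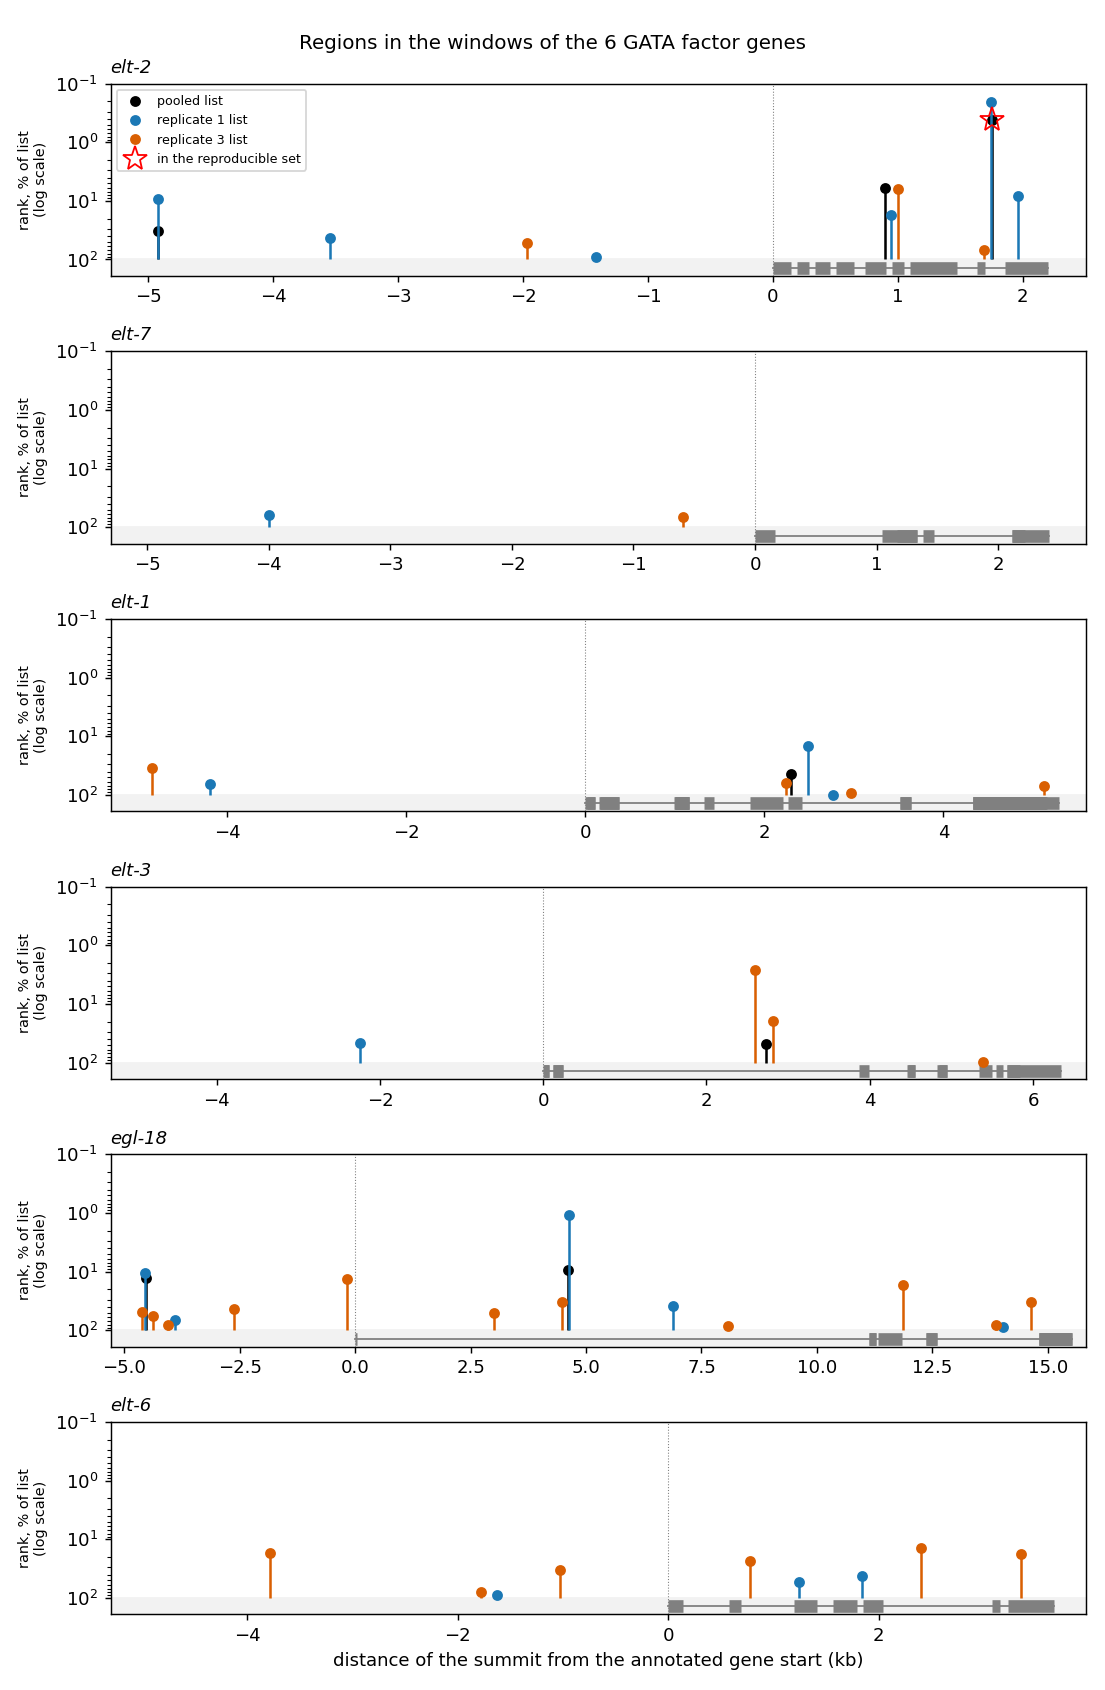
Position of each region's summit relative to the annotated gene start (kb) against its rank as a percentage of its list (log scale, strongest at the top), for the pooled list (black) and replicates 1 (blue) and 3 (orange). Grey boxes are annotated exons and the red star marks the reproducible peak. The strongest black and blue points of elt-2 lie together 1753 bp after the start, where the orange point ranks low, and elt-7 and elt-6 have no black point.

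The master regulator of intestinal differentiation is encoded by elt-2 (WBGene00001250, chromosome X, 10481240 to 10483441). Its reproducible peak ran from 10482835 to 10483150 on X and had a pooled signal value of 30.7, at rank 44 of both the reproducible set and the pooled list. The summit lay in intron 8, between the last exons, 1753 bp after the start and in no promoter window, which here reaches from 1000 bp before to 200 bp past the start of an annotated transcript of any kind. Besides this intron of 158 bp, the peak spanned the whole of exon 8, from 10482877 to 10482941, and parts of intron 7 and exon 9. Of the 45 reproducible peaks, 9 had such an intron position. The peak stood at the edge of the reproducible set, which ended at a signal value of 30.68 at rank 45, and the first pooled region outside it had 30.64 at rank 46. The q-value of the peak in the pooled list was 0.126.

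Support for the elt-2 peak came mainly from replicate 1. In that replicate a region with its summit 8 bp away had a signal value of 21.1, rank 61 and a q-value of 0.00134. In replicate 3 the nearest region, 65 bp away and with its summit in exon 8, had a signal value of 5.39, rank 20860 and a q-value of 0.91. The peak is thus among the top 0.204% of replicate 1 and at the 69.5% mark of replicate 3. Of the 45 reproducible peaks, 26 ranked higher than this peak in replicate 1. In replicate 3, where 40 of the 45 were matched by a region within 200 bp, 1 peak was matched at a lower rank, and 5 had no match. With matches limited to the 5000 strongest regions of each replicate, 29 of the 45 were matched in both, and the elt-2 peak was not.

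The other pooled regions of elt-2 were less strong and differed in which replicate carried them. A region from 10481976 to 10482291 had its summit in exon 5, 894 bp after the start, with a pooled signal value of 20.5 and rank 642. By rank, its support ran the other way from that of the peak. It had rank 5300 (signal value 8.56, q = 0.119) in replicate 1 and rank 1882 (10.4, q = 0.568) in replicate 3. By q-value it did not, as the lower q-value was in replicate 1 at both places. The third region, from 10476162 to 10476477 with a signal value of 15.3 and rank 3485, lay 4920 bp upstream of elt-2. It was in the promoter window of C39B10.7, a neighbouring protein-coding gene whose start was 553 bp away. This region had rank 2735 in replicate 1, and the nearest region of replicate 3 was 2888 bp away. No pooled region of elt-2 lay in a promoter window of elt-2 itself, and neither replicate list had one there.

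In its replicate lists, elt-2 had 6 regions in replicate 1 and 3 in replicate 3. Of the 6, 3 had a q-value under 0.05, as did 10.1% of all replicate 1 regions: the regions at 1745 bp, 1963 bp and, upstream, 4924 bp from the start, with signal values of 21.1, 10.5 and 10.2. The first and second of these, from 10482833 to 10483136 and from 10483051 to 10483354, overlap and share bases. None of the 3 in replicate 3 did. They lay at 1002 bp and 1688 bp after the start and 1967 bp before it, with signal values of 10.4, 5.39 and 6.11.

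**Figure D2:**
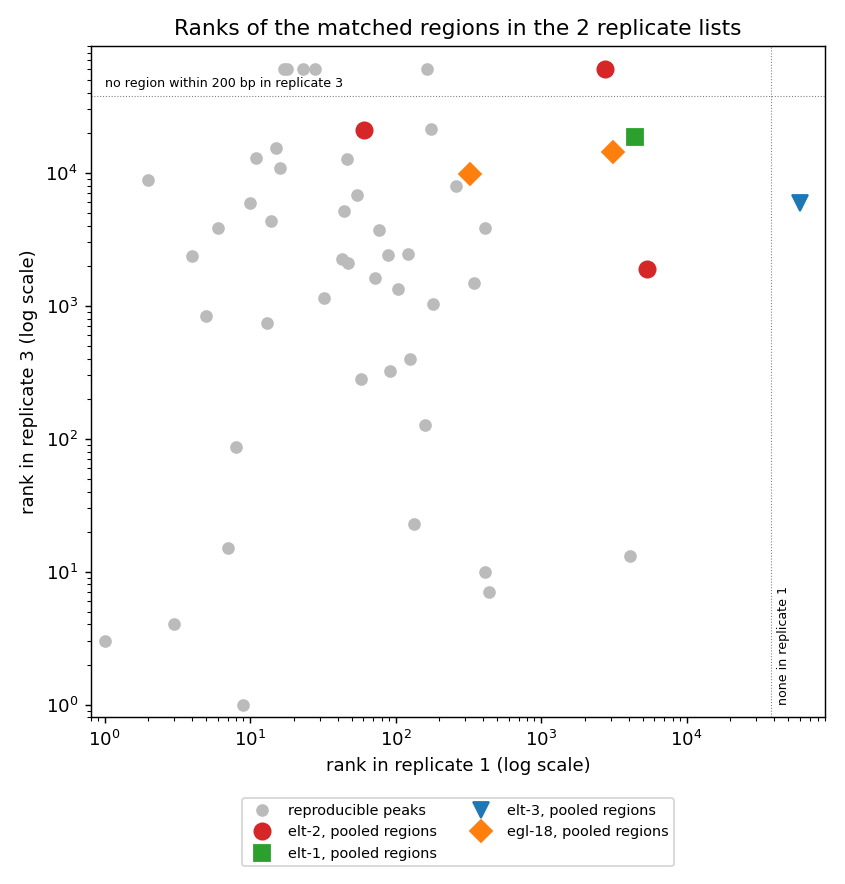
Rank of the nearest region within 200 bp in replicate 1 (x axis, log scale) and replicate 3 (y axis, log scale) for the 45 reproducible peaks (grey) and the 7 pooled regions at the GATA factor genes (coloured). Points beyond the dotted lines had no such region. The elt-2 peak, at rank 61 and rank 20860, stands at the upper left, high in replicate 1 and low in replicate 3.

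The partner of elt-2 in the intestine, elt-7 (WBGene00015981, chromosome V, 4770670 to 4773086), had the fewest regions. Replicate 1 held 1, with a signal value of 5.27 at rank 18905, and its summit, 4001 bp upstream, was 68 bp from the start of the neighbouring gene C18G1.8. Replicate 3 also held 1, with 5.51 at rank 19759. Its summit, 590 bp upstream, was in the promoter windows of both elt-7 and C18G1.9. The q-values were 0.541 and 0.904, and the regions of the replicates were not at the same place. The windows of elt-2 and elt-7 are nearly equal in length, at 7202 and 7417 bp, and held 3 and 0 pooled regions. The genes lie on different chromosomes, X and V, and a difference between chromosomes was not tested.

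Among the epidermal genes, egl-18 (WBGene00001186, chromosome IV, 1902322 to 1917840) had the strongest pooled regions. The stronger ran from 1906773 to 1907088, with its summit in the long first intron of transcript F55A8.1a.2, 4609 bp after the start. Its pooled signal value was 19.1 at rank 997. In replicate 1 it had a signal value of 15.4, rank 326 and a q-value of 0.00134, and in replicate 3 a signal value of 7.2, rank 9759 and a q-value of 0.803. As at the elt-2 peak, replicate 1 ranked this site high and replicate 3 did not. This was not particular to these genes, as most reproducible peaks ranked higher in replicate 1 than their nearest region did in replicate 3. The second, from 1897621 to 1897936 and 4543 bp upstream, had a signal value of 18.3 at rank 1324, with rank 3116 in replicate 1 and rank 14430 in replicate 3. Neither lay in a promoter window. In replicate 3 alone, a region 181 bp upstream of the egl-18 start had a signal value of 9.06 at rank 4027 (q = 0.637).

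The adjacent gene elt-6 (WBGene00001253, chromosome IV, 1917977 to 1921643) begins just after egl-18 ends, so its 5 kb upstream lies within egl-18 and both genes share the regions there. It had no pooled region, but 6 regions in replicate 3 and 3 in replicate 1. The strongest in replicate 3 had a signal value of 8.94 at rank 4294, in intron 5. The strongest in replicate 1 had 6.31 at rank 12856, in intron 4. All 9 had q-values of 0.358 or more. The regions of the replicates came within 200 bp of each other at 1 place, in the upstream part shared with egl-18, 1626 bp and 1776 bp before the elt-6 start.

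At elt-1 (WBGene00001249, chromosome IV, 9614995 to 9620280), which specifies epidermal fate, the pooled region ran from 9617137 to 9617452 with a signal value of 14.4 at rank 4709, close to the list's median signal value of 14.1. Its summit was in exon 6 and fell within the stretch, from 9617279 to 9617353, that codes for the cysteine pattern of a GATA zinc finger. The nearest summits were 192 bp away in replicate 1 (signal value 9.01, rank 4421) and 55 bp away in replicate 3 (5.73, rank 18554), and both lay in the introns beside that exon. No region was called within 1000 bp upstream of the annotated elt-1 start in any list. A pooled region over a zinc finger stretch was not particular to elt-1. The elt-2 region of rank 642 also overlapped such stretches, with its summit 91 bp from the nearer. The elt-2 summit of rank 1882 in replicate 3 fell within that stretch. Of 8 such stretches in the 6 genes, 3 overlapped a pooled region, and both of those at elt-2 overlapped the same one. Some stretches, as both at elt-2, also span an intron. No share over such stretches in all genes was taken, so nothing is read from this count.

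At elt-3 (WBGene00001251, chromosome X, 13934874 to 13941216) the pooled region ran from 13937439 to 13937754, in intron 2 of transcript K02B9.4a.2, with a signal value of 14.3 at rank 5019. It lay 459 bp from the start of K02B9.7, a non-coding RNA gene inside the intron, and so counted as a promoter window region of that gene and not of elt-3. The support was the reverse of that at the elt-2 peak. Replicate 3 had regions on either side of the summit, with signal values of 12.1 (rank 777, 2599 bp after the start) and 8.24 (rank 5954, 2809 bp after it). Replicate 1 had its nearest region 4973 bp away and held only 1 region in the whole window, with a signal value of 6.07 at rank 14137. The region of rank 777 was the highest ranked of all 25 that replicate 3 had at the 6 genes, and its q-value was 0.417.

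**Figure D3:**
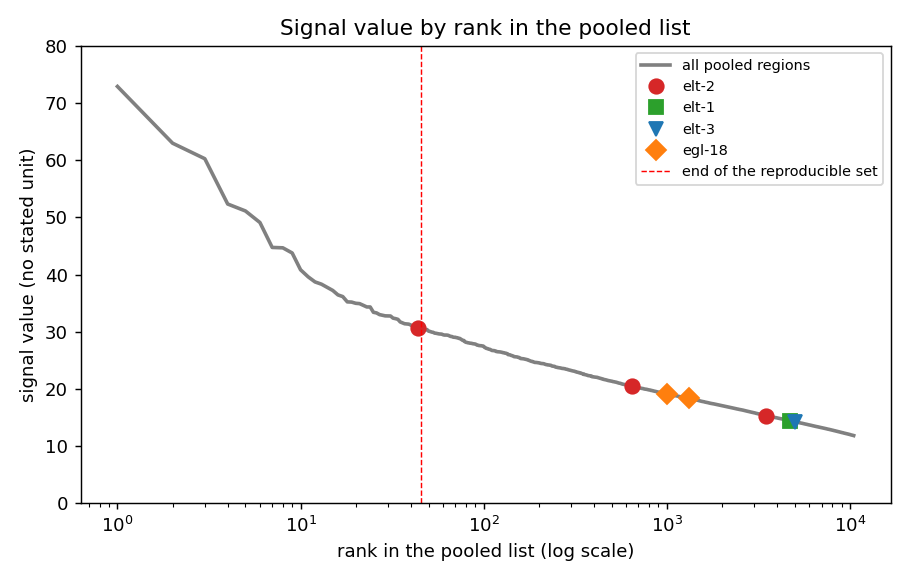
Signal value (no stated unit) against rank in the pooled list (log scale) for all 10489 regions (grey line) and the 7 regions at the GATA factor genes (points). The dashed line marks the end of the reproducible set, with the elt-2 peak at rank 44 just inside it and the next member region, also of elt-2, at rank 642.

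Set against the other genes, elt-2 stood first in the pooled list, with its strongest region at a signal value of 30.7, followed by egl-18 at 19.1, elt-1 at 14.4 and elt-3 at 14.3. The pooled regions of the other 5 genes, 4 in all, ranged from 14.3 to 19.1 with a median of 16.4. Counting elt-2 itself, 59 of the 19973 protein-coding genes (0.295%) had a strongest pooled region at or above that of elt-2, 7.83% at or above that of egl-18, 31.4% at or above that of elt-1 and 33.1% at or above that of elt-3. The order held in part in replicate 1, where elt-2 (rank 61) and egl-18 (rank 326) were followed by elt-1 (4421), elt-6 (12856), elt-3 (14137) and elt-7 (18905). In replicate 3 it was elt-3 (rank 777) that came first, then elt-2 (1882), egl-18 (4027), elt-6 (4294), elt-1 (10408) and elt-7 (19759). With 2 replicates of 1 group, the differences between genes carry no error estimate. The order was not the same in the replicates, and the place of elt-3 changed from the fifth in replicate 1 to the first in replicate 3.

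Window lengths ran from 7202 bp at elt-2 to 20519 bp at egl-18, with 7027 bp as the median of all protein-coding genes, so counts were also taken per 10 kb. The pooled list had 4.17 regions per 10 kb at elt-2, 0.975 at egl-18, 0.972 at elt-1 and 0.882 at elt-3, against 1.05 over the nuclear genome. Replicate 1 gave 8.33 per 10 kb at elt-2 and 0.882 to 3.46 at the others, against 2.99 over the genome. Replicate 3 gave 6.92 at elt-6, 5.36 at egl-18, 4.17 at elt-2, 3.89 at elt-1, 2.64 at elt-3 and 1.35 at elt-7, again against 2.99. Regions in the upstream part of elt-6 lie within egl-18 and count for both genes. At least 3 pooled regions in the window, as at elt-2, were found at 7.49% of protein-coding genes. Over the joined windows of the 6 genes the density was 1.16 pooled regions per 10 kb, near that of the genome, and elt-2 was the only gene of the 6 above the genome's density in the pooled list. Over the same joined windows it was 2.97 in replicate 1 and 4.13 in replicate 3, against 2.99 over the genome in each.

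**Figure D4:**
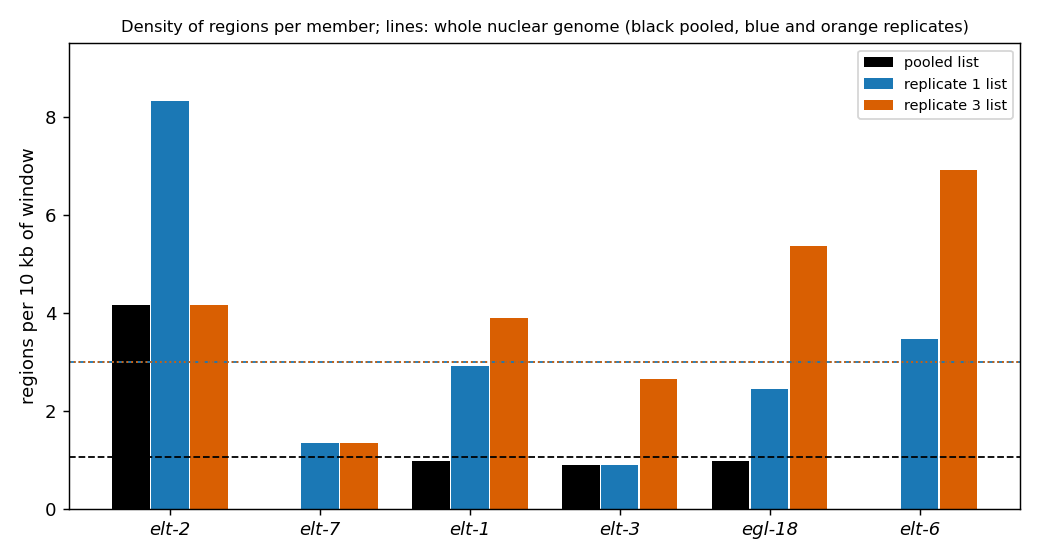
Regions per 10 kb of window (y axis, from 0) for each gene in the pooled list (black) and in replicates 1 (blue) and 3 (orange), with horizontal lines for the whole nuclear genome. In the black and blue bars elt-2 is highest, at 4.17 and 8.33, and in the orange bars elt-6 is, at 6.92. Regions in the upstream part of elt-6 lie within egl-18 and count for both genes.

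By position, 5 of the 7 pooled regions had their summit inside the gene and 2 upstream of it. Beside 5 kb upstream, the genes themselves ran from 2202 bp at elt-2 to 15519 bp at egl-18. No share over all genes was taken for this position, so nothing is read from this count. A promoter window of any transcript held 2 of the 7, where 41.0% of all pooled regions had this position, and neither window belonged to 1 of the 6 genes. Introns outside promoter windows held 2, the elt-2 peak and the stronger egl-18 region, where 19.3% of all pooled regions did. Regions within 200 bp in both replicates were found for 5 of the 7, where 40.5% of all pooled regions had them. The exceptions were the upstream region of elt-2, absent from replicate 3, and that of elt-3, absent from replicate 1. At elt-1, which is among the 5, the summits of the replicates were 247 bp apart and so did not match each other. Within the replicate lists, 6 of 18 regions of replicate 1 at these genes had a match in replicate 3 (21.7% over the whole list) and 7 of 25 of replicate 3 had one in replicate 1 (22.1%).

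The GATA words are the kind of site that GATA factors are known to bind. They occurred within 100 bp of the summit at 2 of the 7 pooled regions, where 33.7% of all pooled regions had them. The elt-3 region held 4 copies, all TGATAA, with centres from 42.5 bp before to 50.5 bp after the summit, as its printed sequence shows. The egl-18 intron region held 3 (AGATAA in both directions and TGATAG). None of the 3 regions of elt-2 held any of these GATA words, in the 100 bp to either side of the summit or in the whole region. The GATA core with other bases beside it does occur at the elt-2 peak, as TTATCC and TTATCG in its printed sequence. The homeodomain words TAATTA and TAATTG, searched because CEH-9 has a homeodomain, occurred at 2 of the 7, against 18.3% of all pooled regions. These were 1 copy of TAATTA at elt-1 and 2 at the egl-18 intron region, each sharing bases there with an AGATAA. The word TAATTA reads the same on both strands. The purine words GAGAGAGA and GAGAAAGA occurred at 1 of the 7, the egl-18 intron region, as 2 overlapping copies on the minus strand, against 5.85% of all pooled regions. No word of the 3 groups was found at the elt-2 peak, which says only that these letters are not in this window. GC content over the 201 bases was 42.3% at the elt-2 peak, 53.2% at the egl-18 intron region and 39.8% at the median of all pooled regions. The 201 bases of the elt-2 peak held no base that RefSeq masks as repeat or low complexity, where the median over pooled regions was 19.9%. The same held for the pooled elt-2 region in exon 5 and the pooled elt-3 region. Of all pooled regions, 83.0% held some masked base.

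Other genes of the same pathways were taken from 4 lists of textbook genes. Of 38 genes in these lists, 0 had a reproducible peak, beside 0.3% of all protein-coding genes, so nothing is read from this count. Of the 5 other GATA factor genes, 3 had a pooled region: end-1 (signal value 13.7), med-1 (13.3) and end-3 (12.4). Of 7 endoderm specification genes 6 had a pooled region, led by the homeodomain gene pal-1 (20.4) and the Wnt pathway genes sys-1 (15.2), lit-1 (15.1) and wrm-1 (15.0). Of 14 intestinal genes 8 had one, led by eps-8 (24.2, at rank 220), mtl-2, which encodes a metallothionein (22.7, at rank 346), the yolk protein gene vit-2 (15.96) and the protease gene cpr-1 (14.6). Of 12 epidermal genes 8 had one, led by lin-26, a zinc finger gene of epidermal fate (17.9), the collagen gene bli-1 (17.6), the nuclear receptor gene nhr-25 (16.2) and the homeobox gene ceh-16 (14.97). Shares of the lists were 60%, 85.7%, 57.1% and 66.7%, beside 56.0% for all protein-coding genes, and windows of the endoderm list were longer, with a median of 9889 bp. The highest value in the lists, at eps-8, was below that of the elt-2 peak, which had led to the choice of the members.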

How the data were processed

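CEH-9 ChIP-seq of 2 biological replicates was analysed from the deposited region lists on build ce11. Per the deposited descriptions, each replicate list was made by the authors from that replicate's alignment and a control alignment, a further list from the pooled replicates, and the reproducible set from all of these. The sources used here name no aligner, caller, scaling or threshold. The authors' signal value per region has no stated unit, and the deposited −log10 q-value was turned into a q-value.

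Regions ended within the chromosomes of WBcel235, and genes came from Ensembl release 115. Mitochondrial regions were left out of ranks. Summits within 200 bp counted as matched. Words were searched on both strands. The members and lists were chosen with earlier results of these data known. No test was run. The genes named were the 6 members, up to 4 genes of each other list with the highest pooled signal value, and the gene with the start nearest to a described region. The window rule was tested on simulated regions placed upstream of gene starts, and the word search on a short made-up sequence. Python 3.11.15, pandas 2.3.3 and numpy 2.4.6 were used. Lists on build ce10 were not used here. Read depth is unknown, so no interval is given.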

Additional observations from a re-analysis of the deposited data

How the results depend on the processing

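The elt-2 peak remained the only reproducible peak at these genes with windows 2 kb or 10 kb upstream and with the summit required inside the window. With q under 0.05 in the pooled list, 0 of the 6 genes had a reproducible peak or a pooled region, so 0 pooled regions were left over the 6 genes, and 0 of the 38 genes of the other lists had one. Windows 10 kb upstream gave 12 pooled regions in place of 7 and brought in elt-7 (signal value 13.7). They took elt-3 from 1 to 4 regions, the strongest at 17.3 and rank 1847, which placed it above elt-1 (14.4). In the list of 1 replicate alone, regions over the 6 genes numbered from 18 (without replicate 3) to 25 (without replicate 1), lists that are longer than the pooled list by construction. The place of elt-2 among the 6 genes was 1 without replicate 3 and 2 without replicate 1, behind elt-3. Matches in both replicates fell from 5 to 2 of 7 at 100 bp, where 27.8% of all pooled regions were matched, and to 0 in the 5000 strongest regions of each replicate (3.79%). Promoter windows held 1 of the 7 regions with 500 bp upstream or with protein-coding starts alone, and 3 with 2000 bp upstream. These counts have no share of all pooled regions beside them and are not compared with the share given above. GATA words were at 1 of 7 regions within 50 bp of the summit (18.3% of all pooled regions) and at 3 in whole regions (47.9%). Of 33 alternative values, 20 stayed within 1.5 times the reported one, the place of elt-2 counted as moved by any change. The alternatives for the other lists were chosen after the data were seen. No paired analysis was possible because there is 1 group. Few regions and 2 replicates limit every count here.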
